A study of Mus musculus with 36 samples.

Results

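The genes described here are those of the cytochrome P450 (Cyp) and flavin-containing monooxygenase (Fmo) enzymes in the mouse cochlea, together with Por and Alas1. Members were taken by symbol: protein-coding genes named Cyp or Fmo followed by a number, leaving out Cyp51, with a mean count of at least 10 over the 36 libraries. Of 108 candidate genes, 46 were members, among 20345 genes of the table that reached the same mean count and 39017 genes in all. The study measured how adrenalectomy, which removes the adrenal source of glucocorticoids, changes gene expression in the cochlea around the circadian day. RNA of whole cochleae was sequenced from adrenalectomized (ADX) and from sham-operated mice of strain CBA/Sca aged 12 weeks, every 4 h from CT04 to CT24 of circadian time. Each of the 12 groups, which are the 2 surgical statuses at each of the 6 times, had 3 libraries. The labels name no other allele, treatment or hormone replacement and do not say whether a library holds 1 animal or several, so the p-values below measure the spread between these samples, which may be technical.

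Cytochrome P450 enzymes are heme proteins that insert oxygen into fatty acids, steroids, retinoids, vitamin D and foreign chemicals. Those of the endoplasmic reticulum receive electrons from NADPH through the flavoprotein POR, and their heme comes from a pathway whose rate-limiting enzyme is ALAS1. Flavin-containing monooxygenases carry out a related reaction on nitrogen and sulfur without heme and without POR. In mouse liver, the clock-controlled transcription factors DBP, TEF and HLF, which bind the sequence called the D-box, are known to drive daily rhythms of Cyp2a5, Por and Alas1.

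The promoters of Cyp2a5, Por and Fmo2 are printed to show the start regions of the members with the strongest daily rhythms, and a pair of shorter windows to show the other members whose promoter held a D-box. The sequences are from RefSeq on build GRCm38.p6, each from 250 bases before to 50 bases after an annotated start, read 5′ to 3′ on the strand of the gene. The promoter of Cyp2a5 lies at chr7:26835089-26835388 on the plus strand, that of Por at chr5:135688895-135689194 on the plus strand and that of Fmo2 at chr1:162898709-162899008 on the minus strand. The windows of Cyp2b10, at chr7:25897580-25897627 on the plus strand, and of Cyp4f14, at chr17:32917110-32917157 on the minus strand, show 20 bases on each side of the match. Capitals mark a D-box match, here the letters TTATGCAA read on the other strand.
Cyp2a5: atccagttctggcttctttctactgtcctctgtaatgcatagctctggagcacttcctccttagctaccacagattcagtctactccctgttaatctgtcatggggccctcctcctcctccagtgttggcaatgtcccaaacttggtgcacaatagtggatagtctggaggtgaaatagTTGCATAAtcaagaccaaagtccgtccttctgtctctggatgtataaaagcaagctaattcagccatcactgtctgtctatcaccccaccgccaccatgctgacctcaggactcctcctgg
Por: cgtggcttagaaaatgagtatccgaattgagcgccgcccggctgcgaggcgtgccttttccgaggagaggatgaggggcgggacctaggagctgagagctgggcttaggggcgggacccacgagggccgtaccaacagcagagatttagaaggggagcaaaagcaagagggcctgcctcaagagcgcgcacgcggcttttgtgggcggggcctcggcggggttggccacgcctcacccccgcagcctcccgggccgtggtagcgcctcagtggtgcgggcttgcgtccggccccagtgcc
Fmo2: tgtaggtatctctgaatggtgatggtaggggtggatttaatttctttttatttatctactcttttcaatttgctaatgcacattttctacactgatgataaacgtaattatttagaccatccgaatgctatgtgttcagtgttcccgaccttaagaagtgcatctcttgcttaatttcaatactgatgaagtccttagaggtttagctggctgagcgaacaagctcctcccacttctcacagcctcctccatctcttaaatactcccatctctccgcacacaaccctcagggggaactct
Cyp2b10: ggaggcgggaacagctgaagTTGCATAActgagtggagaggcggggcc
Cyp4f14: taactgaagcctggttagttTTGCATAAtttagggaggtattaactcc
The match stands at positions -71 to -64 from the start of Cyp2a5, -58 to -51 from that of Cyp2b10 and -50 to -43 from that of Cyp4f14. The D-box was searched as TTATGTAA or TTATGCAA on both strands in the 40 promoters of the 34 members that the table held. Matches were present for 3 of the 34 members (8.82%), or 7.5% of their promoters, and in 1.66% of the 32851 promoters in the table. No promoter of Por, Alas1 or Fmo2 in the table was among those with a match.

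The other motifs searched, also on both strands, were the E-box CACGTG, the core ACANNNTGT of the glucocorticoid receptor element, the core TAGGTCA of the ROR element, the CCAAT box and the NRF2 element TGANNNNGC. The E-box was in promoters of Cyp2j6 and Cyp4v3, or 5.0% of member promoters, against 7.15% of all promoters. The glucocorticoid receptor core was in promoters of Cyp2t4, Cyp4f13 and Fmo6, or 7.5% of member promoters, against 6.85% of all. The ROR core was in 0 member promoters, against 2.61% of all. CCAAT was in 52.5% of member promoters, against 37.4% of all, and the NRF2 element in 45%, against 41.3%. In Cyp2a5, 1 match to the NRF2 element, at positions -69 to -61, overlaps the D-box match. These letter matches are descriptions and no binding was measured.

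Library totals were 20351081 to 28947793 counts in ADX cochleae and 18999408 to 28995197 counts in sham cochleae, of which the 46 members held 0.0824 to 0.1098%. In the ADX group, 3 libraries carried high skeletal muscle transcripts (CT12 replicate 1, CT16 replicate 2 and CT20 replicate 3). The pituitary hormone gene Gh exceeded 50 CPM (counts scaled to the size of each library) in ADX CT24 replicates 1 and 2 and in sham CT08 replicates 2 and 3 and CT16 replicate 3. Markers of cochlear hair cells, 6 of 6, and of the stria vascularis, 6 of 6, were detected at a mean of at least 0.1 CPM. Of 8 hepatocyte markers, Serpina1a, Fgb, Cyp3a11 and Cyp2c29 averaged under 0.1 CPM, Alb averaged 0.454 CPM, and Ttr, which the choroid plexus also makes, reached 5263 CPM in 1 library. Of the 9 markers of airway and middle ear epithelium, Scgb1a1 averaged under 0.1 CPM, while the sum of the list was 1445 to 3472 CPM (median 2589) in ADX and 1350 to 3706 CPM (median 2615) in sham libraries. Most of that sum was Bpifa1, a secreted protein of airway and middle ear epithelium.

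The cochlea held a limited set of these genes. The 62 candidates below the minimum had a count in at least 1 library each, and 30 of them averaged under 1 count. All 15 Cyp2c genes, a large drug-metabolising family of liver, averaged at most 3.06 counts, and 8 of 9 Cyp3a genes averaged at most 1.44 counts, Cyp3a13 being the member. Just inside the limit were Cyp24a1 with a mean of 13.8 counts, Cyp21a1 with 14.1 and Cyp2j12 with 14.3. Just outside were Cyp2a12 with 9.67, Cyp2g1 with 9.33 and Cyp2b19 with 8.33. At a minimum of 50 counts the members would number 33.

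Levels were compared between genes as mean CPM over all libraries per kilobase of the deposited length column, which is not a whole number for many genes and so sets the scale of these values only as well as that column does. Cyp2f2, the naphthalene-oxidising P450 of mouse airway club cells, was highest at 127.1 CPM per kilobase. Por followed at 109.9 and Alas1 at 48.3 CPM per kilobase. The highest CYP4 genes, which hydroxylate fatty acids and eicosanoids, were Cyp4f13 at 23.8 and Cyp4f18 at 18.01 CPM per kilobase. The highest FMO genes were Fmo1 at 20.11 and Fmo5 at 12.7, and in the CYP2 family Cyp2d22 followed Cyp2f2 at 19.27. Cyp1b1, which oxidises estradiol and retinoids, stood at 18.6 CPM per kilobase and the other CYP1 member, Cyp1a1, a target of the aryl hydrocarbon receptor, at 0.264. Cyp2a5, a coumarin and nicotine hydroxylase, was 25th of the 46 at 3.15 CPM per kilobase, and Cyp24a1, which degrades active vitamin D, was lowest at 0.155.

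None of the 46 members passed the threshold between ADX and sham cochleae, over the 6 times together or at any single time. The test was edgeR's quasi-likelihood test on the counts, with p-values adjusted by the Benjamini-Hochberg method over all 22556 genes tested and a threshold of 0.05. Over the mean of the 6 times, 162 of all genes tested were called (0.718%), and 0 members were. At an unadjusted p under 0.05, 8 members stood out (17.4% of members, against 15.6% of all genes). Of the 46, 4 were higher in ADX (against 8.22% of all genes) and 4 lower (against 7.39%). The member fold changes ran from -0.20 to 0.36 on the log2 scale with a median of 0.04, and 31 were positive and 15 negative, against 49.3% negative among all genes. The median of all genes was 0.00 on the same scale.

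**Figure D1:**
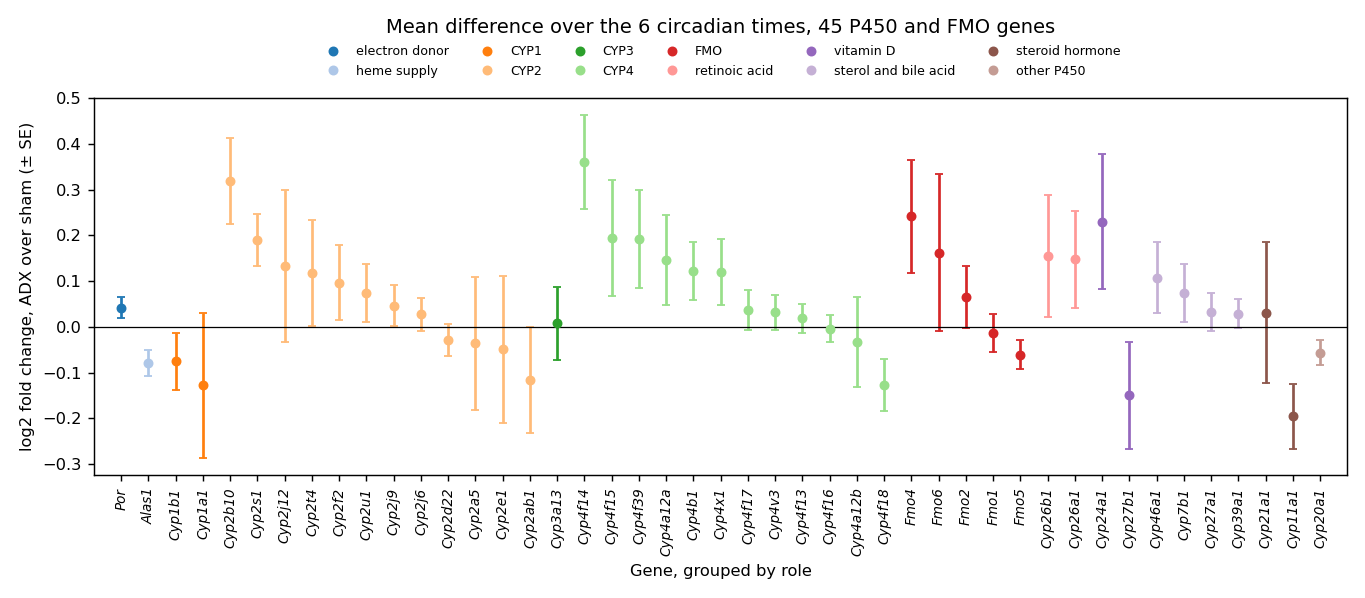
Log2 fold change of ADX over sham cochleae, mean of the 6 times, for 45 members, with points for the estimate and bars for its standard error from edgeR. Positive values are higher in ADX, and the values lie between -0.20 (Cyp11a1) and 0.36 (Cyp4f14).

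The plot of fold changes shows most members within 0.3 of no difference. The largest was Cyp4f14, a fatty acid and leukotriene hydroxylase, at 0.36 ± 0.10 (SE, adjusted p = 0.0820, edgeR). Cyp4f14 had 2.35 to 5.87 CPM (median 3.66) in the 18 ADX libraries and 1.99 to 3.87 CPM (median 2.71) in the 18 sham libraries, so the statuses overlapped. Cyp2b10, known in liver for its induction by phenobarbital, had 3.04 to 9.01 CPM (median 6.19) in ADX and 3.41 to 6.91 CPM (median 4.87) in sham libraries, a log2 fold change of 0.32 ± 0.09 (adjusted p = 0.0948, edgeR). In both genes the ADX range reached higher than the sham range and the ranges overlapped. Cyp4f14 passed on leaving out ADX CT04 replicate 2 and Cyp2b10 on leaving out ADX CT08 replicate 1, and both passed with DESeq2, which called 2.19% of all genes.

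Other members among the 10 largest were Fmo4 at 0.24, Cyp24a1 at 0.23, Cyp4f15, Cyp4f39 and Cyp2s1 at 0.19 each, Fmo6 at 0.16 and Cyp11a1 at -0.20. Cyp2s1, an extrahepatic P450 of epithelia, had the third smallest p of the members, with 12.0 to 20.9 CPM (median 17.9) in ADX and 11.4 to 18.8 CPM (median 15.0) in sham libraries (adjusted p = 0.0977, edgeR). Cyp11a1, which cleaves the side chain of cholesterol as the first step of steroid synthesis, had 2.16 to 3.77 CPM (median 2.97) in ADX and 2.01 to 4.58 CPM (median 3.34) in sham libraries (adjusted p = 0.164, edgeR). Cyp21a1, a later hydroxylase of adrenal steroid synthesis, had 0.329 to 0.989 CPM in ADX and 0.248 to 0.918 CPM in sham libraries, a log2 fold change of 0.03 ± 0.15. Cyp11a1 overlaps a non-coding RNA gene on its own strand, and Cyp21a1 a Tnxa pseudogene on the other. Since the sources used here do not give the strand setting of the counting, the reads of overlapping genes cannot be told apart with certainty.

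Por averaged 124 ± 16.141 CPM in ADX and 121 ± 21.3 CPM in sham cochleae (SD, n = 18 libraries over the 6 times each), a log2 fold change of 0.04 ± 0.02 (adjusted p = 0.396, edgeR). Alas1 averaged 78.4 ± 7.67 CPM in ADX and 82.7 ± 6.95 CPM in sham cochleae, a log2 fold change of -0.08 ± 0.03 (adjusted p = 0.156, edgeR). Cyp2a5 averaged 2.95 ± 2.36 CPM in ADX and 3.08 ± 2.34 CPM in sham cochleae, and Fmo2 20.9 ± 7.60 CPM in ADX and 20.6 ± 9.56 CPM in sham cochleae. The SDs include any change over the day, described next. In bulk RNA of this kind, fewer cells of a type and less RNA per cell cannot be told apart.

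Daily rhythm was tested with a cosine of period 24 h fitted in each status, and its size is given as the peak-to-trough difference of the fitted curve on the log2 scale. Peak hours use the labelled times, which differ by 1 h from the column names in 30 of 36 columns. The SEs of the peak hours do not include this uncertainty. In ADX cochleae 7 members had a rhythm past the threshold (15.22%, against 9.4% of all genes tested), and in sham cochleae 10 members (21.7%, against 16.08%). There were 6 members past it in both statuses (13.0%, against 5.62%): Por, Cyp2a5, Fmo2, Fmo1, Cyp4b1 and Cyp27b1. In a test of the rhythm common to both statuses, which uses all libraries, 21 members passed (45.7%, against 32.5%), of which 11 were past the threshold in neither status alone. DESeq2 called 11 of 46 members in ADX (against 11.6% of all genes). Without the filter on low counts, edgeR called 6 of 46 in sham (against 6.82%). The test of a difference in rhythm between ADX and sham called 0 members and 0 genes in all (0%). At an unadjusted p under 0.05 it held 2 members, Cyp2j12 and Cyp4b1 (4.35% of members, against 3.57% of all genes). DESeq2 also called 0 members.

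**Figure D2:**
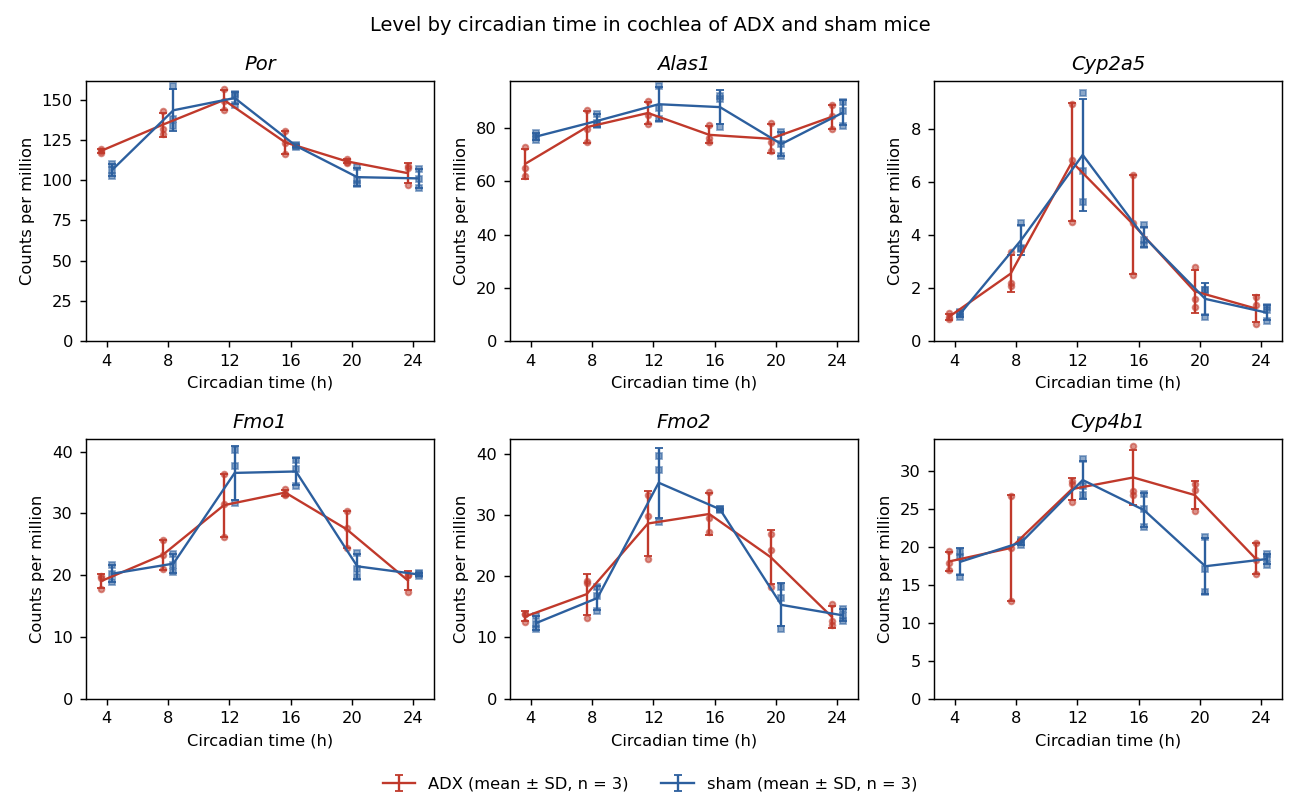
CPM against circadian time in hours for Por, Alas1, Cyp2a5, Fmo1, Fmo2 and Cyp4b1. Each point is 1 library and lines join the means of 3 libraries, with ADX and sham in separate colours. Cyp2a5 was highest at CT12 and lowest at CT04 in both statuses.

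The plot of CPM by time shows the 2 statuses following each other for most of the day. Cyp2a5 had the largest fitted rhythm of the members, with a peak-to-trough difference of 2.77 ± 0.29 in ADX and 2.93 ± 0.29 in sham cochleae (SE, log2). At CT12 its libraries held 8.96, 6.83 and 4.48 CPM in ADX and 5.26, 9.38 and 6.43 CPM in sham cochleae. At CT04 they held 0.895, 1.05 and 0.823 CPM in ADX and 0.910, 1.11 and 1.05 CPM in sham cochleae. The CT12 and CT04 libraries did not overlap in either status, and the ratio of their means was 7.33 in ADX and 6.86 in sham cochleae. Here and below, such times were picked as those with the highest and lowest means. A lack of overlap between them is thus no separate support for a rhythm. The fitted peak was at 13.4 ± 0.42 h in ADX and 12.4 ± 0.39 h in sham cochleae (adjusted p of the rhythm 5.8e-07 in ADX and 4.3e-08 in sham, edgeR; unadjusted p of the difference 0.219). Cyp2a5 rests on 18 to 209 counts per library, and 12.14% of the 100-base words in its transcripts also occur in other genes, mainly Cyp2a4, so its reads may be shared with that close relative.

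Fmo2, the main flavin monooxygenase of lung, had the next largest rhythm among members past the threshold in both statuses, 1.35 ± 0.16 in ADX and 1.58 ± 0.15 in sham cochleae (SE, log2). It was highest in ADX at CT16 with 33.8, 27.1 and 29.5 CPM and lowest at CT24 with 12.0, 12.6 and 15.4 CPM. In sham cochleae it was highest at CT12 with 28.8, 37.4 and 39.6 CPM and lowest at CT04 with 11.296, 12.165 and 13.498 CPM. Neither pair of groups, picked as the highest and lowest means, overlapped. Cyp2a5 and Fmo2 were the only members past the shared test with a peak-to-trough difference over 1 in both statuses. They made up 4.35% of members, against 1.15% of all genes. Fmo1, the related enzyme of kidney and liver in mouse, had 0.90 ± 0.11 in ADX and 1.01 ± 0.10 in sham cochleae, with the highest means at CT16, 33.4 ± 0.488 CPM in ADX and 36.8 ± 2.17 CPM in sham cochleae (SD, n = 3). The fitted peaks of Fmo2 were at 14.9 h in ADX and 13.8 h in sham, and those of Fmo1 at 14.8 h in ADX and 13.9 h in sham cochleae.

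Fmo4, Fmo1, Fmo2 and Fmo6 lie in this order on the minus strand of chromosome 1, from 162793188 to 162937515 on GRCm38. Fmo1, Fmo2 and Fmo6 passed the shared test. Fmo6 had a peak-to-trough difference of 0.99 ± 0.32 in ADX and 0.62 ± 0.33 in sham cochleae, on 8 to 50 counts per library, and was past the threshold in neither status alone. Fmo4, with 0.26 ± 0.23 in ADX and 0.34 ± 0.24 in sham cochleae, and Fmo5 on chromosome 3, with 0.12 ± 0.08 in ADX and 0.17 ± 0.08 in sham cochleae, did not pass. In Fmo1, Fmo2 and Fmo6, the fitted peaks lay between 14.8 and 17.9 h in ADX and between 13.8 and 18.3 h in sham cochleae.

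Por, the electron donor, had the smallest p of a shared rhythm of all members and the 13th smallest of all genes tested. At CT12 it held 157, 144 and 149 CPM in ADX and 153, 154 and 147 CPM in sham cochleae. At CT24 it held 108, 109 and 97.1 CPM in ADX and 95.5, 101 and 107 CPM in sham cochleae. The groups, picked as the highest and lowest means, did not overlap, and the ratio of the means was 1.44 in ADX and 1.495 in sham cochleae. The peak-to-trough difference was 0.47 ± 0.05 in ADX and 0.64 ± 0.05 in sham cochleae (SE, log2), with peaks at 11.04 h in ADX and 10.9 h in sham cochleae (unadjusted p of the difference 0.106). Alas1, the enzyme of heme supply, had a peak-to-trough difference of 0.13 ± 0.08 in ADX and 0.15 ± 0.08 in sham cochleae and did not pass the shared test (adjusted p = 0.160, edgeR).

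In the CYP4 family, 5 of 12 members passed the shared test (41.7%, against 32.5% of all genes): Cyp4b1, Cyp4f18, Cyp4f16, Cyp4f13 and Cyp4a12b. Cyp4b1, which hydroxylates fatty acids and activates furan toxins in lung, passed in each status, with a peak-to-trough difference of 0.80 ± 0.13 in ADX and 0.68 ± 0.13 in sham cochleae. It was highest in ADX at CT16 with 33.2, 26.8 and 27.4 CPM and lowest at CT04 with 17.9, 19.4 and 16.9 CPM. In sham cochleae it was highest at CT12 with 26.8, 31.6 and 28.0 CPM and lowest at CT20 with 17.0, 14.0 and 21.3 CPM. These groups, picked as the highest and lowest means, did not overlap in either status. The fitted peak was at 15.6 ± 0.62 h in ADX and 12.7 ± 0.73 h in sham cochleae, with an unadjusted p of 0.0181 for the difference, which did not survive adjustment.

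Cyp4f18, which hydroxylates leukotriene B4 in mouse neutrophils, had a peak-to-trough difference of 0.45 ± 0.14 in ADX and 0.39 ± 0.14 in sham cochleae. The summed level of 7 neutrophil markers was 4641 to 8784 CPM (median 6932) in ADX and 6251 to 10650 CPM (median 7480) in sham libraries, and its part in the values of Cyp4f18 was not tested. Cyp4f18 overlaps Zfp961, and Cyp2t4 overlaps the far more abundant Egln2, each on the other strand. Cyp4f13 had 0.17 ± 0.07 in ADX and 0.20 ± 0.07 in sham cochleae, and Cyp4f16 0.18 ± 0.06 in ADX and 0.14 ± 0.06 in sham cochleae. Cyp4a12b had 0.66 ± 0.19 in ADX and 0.21 ± 0.19 in sham cochleae and kept its shared call in 21 of 36 fits that left out 1 library. It shares 36.2% of its 100-base words with Cyp4a12a, so the counts of this pair, which hydroxylate arachidonic acid in mouse kidney, are uncertain.

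**Figure D3:**
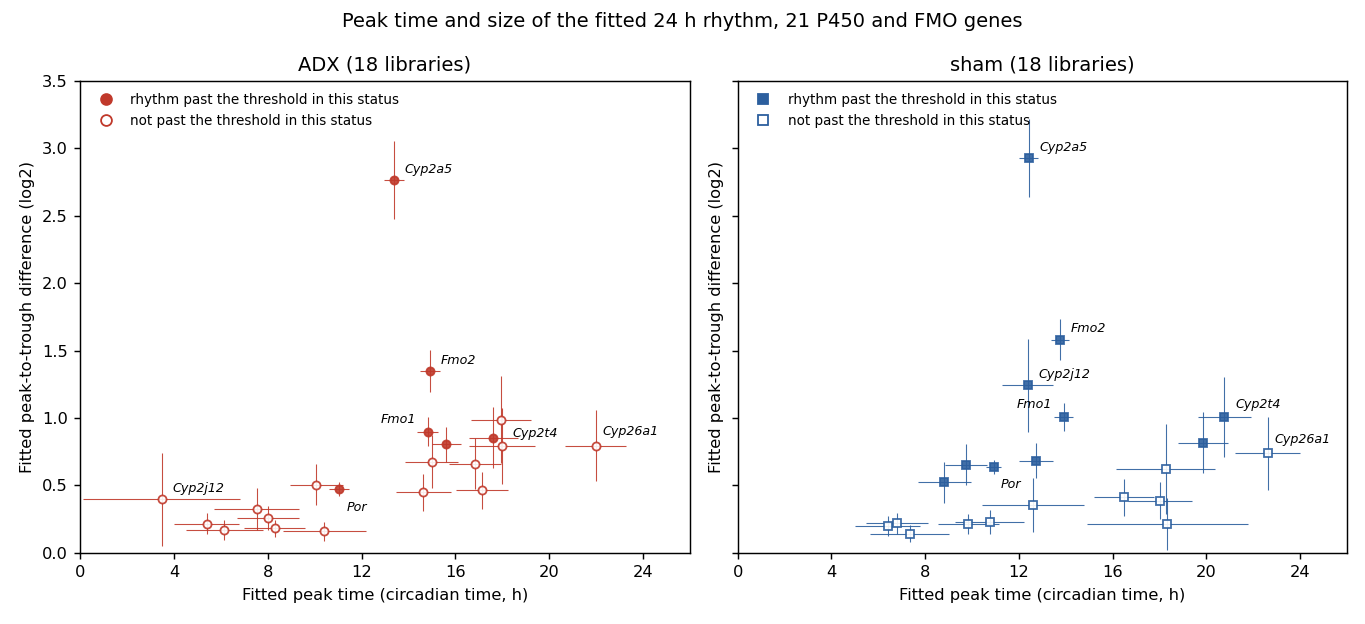
Peak-to-trough difference (log2) against fitted peak time in hours for 21 members past the threshold in a test of rhythm, ADX left and sham right, with standard errors as bars. Filled symbols passed in that status, and Cyp2a5 stands highest in both at 2.77 in ADX and 2.93 in sham cochleae.

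The plot of peak time against size shows many peaks in the middle of the range. All 7 members past the threshold in ADX and 6 of 10 in sham cochleae peaked between 10 and 18 h, a window chosen after the values were seen. Among all genes past the threshold, the share in this window was 26.1% in ADX and 23.4% in sham cochleae. Of the 21 members with a shared rhythm, 11 had a later fitted peak in ADX and 10 a smaller peak-to-trough difference in ADX than in sham cochleae. Over all 46 members the difference was smaller in ADX for 25 (54.3%, against 56.8% of all genes).

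In the CYP2 family, 5 of 12 members passed the shared test (41.7%, against 32.5% of all genes): Cyp2a5, Cyp2t4, Cyp2j6, Cyp2d22 and Cyp2b10. Cyp3a13, the 1 CYP3 member, also passed it. Cyp2j6, an epoxygenase of arachidonic acid, had a peak-to-trough difference of 0.22 ± 0.08 in ADX and 0.22 ± 0.08 in sham cochleae, with peaks at 5.39 h in ADX and 6.80 h in sham cochleae. Cyp2d22 had 0.16 ± 0.07 in ADX and 0.21 ± 0.07 in sham cochleae, and Cyp2b10 0.67 ± 0.20 in ADX and 0.35 ± 0.20 in sham cochleae. Cyp3a13, a steroid and drug hydroxylase, had 0.32 ± 0.16 in ADX and 0.52 ± 0.15 in sham cochleae, and kept its call in sham in 9 of 36 fits that left out 1 library. Cyp2t4 had 0.79 ± 0.28 in ADX and 1.01 ± 0.30 in sham cochleae, and kept its call in sham in 16 of 36 such fits.

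Cyp2j12 passed in sham cochleae alone and not in the shared test, with a peak-to-trough difference of 0.40 ± 0.35 in ADX and 1.24 ± 0.34 in sham cochleae. At CT12 it held 0.364, 0.449 and 0.718 CPM in ADX and 1.13, 0.942 and 1.43 CPM in sham cochleae. The ADX and sham libraries at CT12 did not overlap, and no other library of the 36 was above 0.842 CPM. CT12 was singled out after the values were seen, and these libraries also enter the tests of rhythm. Their lack of overlap is thus no separate support, and the share of all genes without overlap at CT12 was not counted. The unadjusted p of the difference in rhythm was 0.0127 and no gene passed after adjustment. With 6 to 31 counts per library, this gene is among the least abundant members.

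Of the 4 sterol and bile acid enzymes, 2 passed the shared test, against 32.5% of all genes. Cyp46a1, which hydroxylates cholesterol in neurons, had a peak-to-trough difference of 0.50 ± 0.15 in ADX and 0.65 ± 0.15 in sham cochleae, with peaks at 10.1 h in ADX and 9.74 h in sham cochleae. Cyp27a1, a mitochondrial sterol hydroxylase, had 0.26 ± 0.09 in ADX and 0.23 ± 0.09 in sham cochleae and passed the shared test, while Cyp39a1 and Cyp7b1, which hydroxylate oxysterols, did not. Cyp27b1, which makes active vitamin D, had 0.85 ± 0.23 in ADX and 0.82 ± 0.23 in sham cochleae, with peaks at 17.6 h in ADX and 19.9 h in sham cochleae. Its call was kept in 29 of 36 fits that left out 1 library in ADX and in 32 of 36 in sham cochleae. Cyp24a1, its catabolic counterpart, had 0.34 ± 0.28 in ADX and 0.82 ± 0.29 in sham cochleae and did not pass, on 6 to 32 counts per library. Cyp24a1 overlaps Pfdn4 on the other strand, which averaged 271 counts against 13.8 for Cyp24a1. With the strand setting not given, its reads cannot be told apart from those of Pfdn4 with certainty.

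Cyp26a1, which degrades retinoic acid, peaked late, at 22.0 h in ADX and 22.6 h in sham cochleae, with a peak-to-trough difference of 0.79 ± 0.26 in ADX and 0.74 ± 0.27 in sham cochleae. Its libraries at CT20 held 2.72, 2.57 and 1.29 CPM in ADX and 1.58, 1.44 and 1.59 CPM in sham cochleae, against 0.637, 0.698 and 0.987 CPM in ADX and 0.987, 0.673 and 0.787 CPM in sham cochleae at CT12. The CT20 and CT12 libraries, picked as the highest and lowest means, did not overlap in either status. Cyp26b1, the other member that degrades retinoic acid, had 0.33 ± 0.26 in ADX and 0.14 ± 0.26 in sham cochleae and did not pass. Cyp1b1 passed the shared test with 0.46 ± 0.14 in ADX and 0.41 ± 0.13 in sham cochleae, and Cyp1a1 did not. Cyp11a1, Cyp21a1 and Cyp20a1, a P450 without a known substrate, did not pass any test of rhythm. Cyp20a1 had 18.2 to 22.7 CPM (median 20.97) in ADX and 20.04 to 25.2 CPM (median 21.6) in sham libraries. Cyp39a1 had 22.6 to 29.6 CPM (median 26.8) in ADX and 23.2 to 30.9 CPM (median 26.5) in sham libraries.

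**Figure D4:**
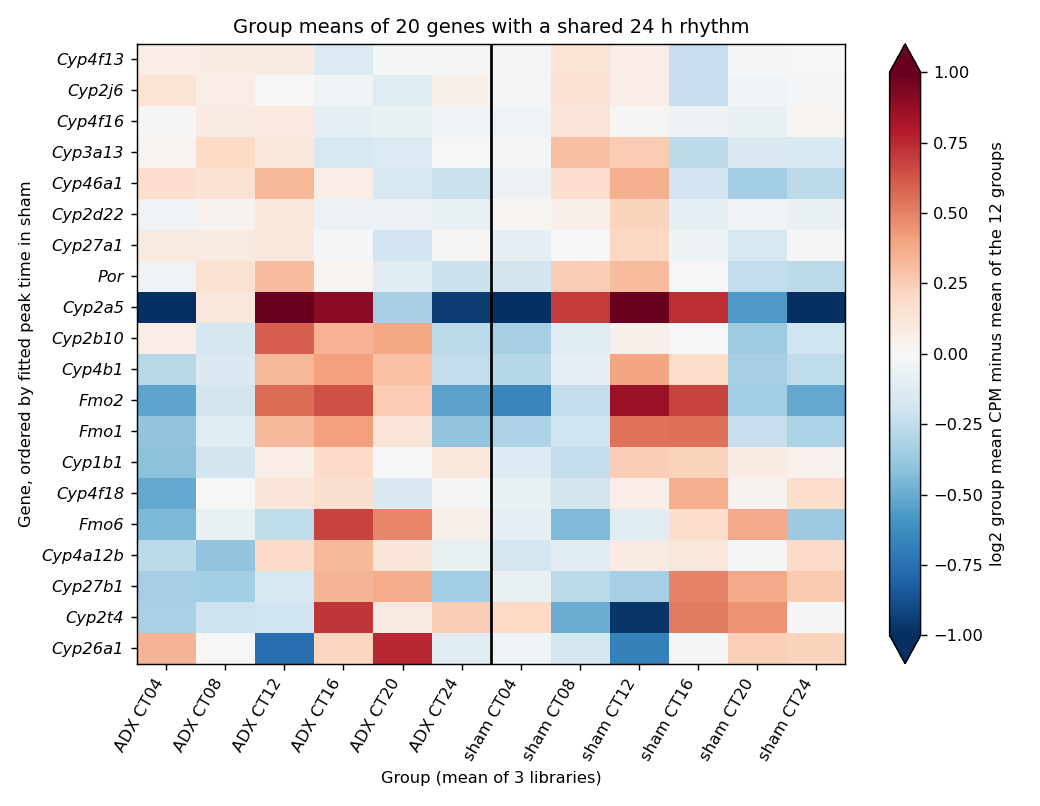
Mean of each of the 12 groups for 20 members with a shared rhythm, as log2 CPM less the mean of the gene over all groups, with ADX columns left of sham columns and CT04 to CT24 in order. Cyp2a5 and Fmo2 are high at CT12 and CT16 and low at CT04 and CT24 in both statuses.

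The heat map of group means shows Cyp2a5, Fmo2, Fmo1 and Cyp4b1 high at CT12 and CT16, and Cyp26a1 lowest at CT12. At single times, 0 members were called between ADX and sham cochleae, against 0.00443% of all genes at CT20, which is 1 gene, and 0% at each other time. At an unadjusted p under 0.05 there were 5 members at CT04 (10.9% of members), 1 at CT08 (2.17%), 4 at CT12 (8.70%), 3 at CT16 (6.52%), 10 at CT20 (21.7%) and 2 at CT24 (4.35%). The shares of all genes at that limit were 9.3% at CT04, 4.28% at CT08, 5.41% at CT12, 7.95% at CT16, 7.49% at CT20 and 5.74% at CT24. With DESeq2, 1 member, Cyp4b1, passed at CT20, against 0.74% of all genes, and 0 at the other times.

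CT20 held the most members at that limit and is described further for that reason. The choice was made after the values were seen. All 10 members at CT20, 21.7% of members, had higher values in ADX, against 4.4% of all genes. They included Cyp2e1 with a log2 fold change of 1.29, Cyp2b10 with 0.75, Cyp4b1 with 0.62, Fmo2 with 0.59, Cyp26a1 with 0.53, Cyp2s1 with 0.49, Cyp2f2 with 0.42, Fmo1 with 0.35 and Por with 0.13. The smallest adjusted p was 0.110, for Cyp4b1 (edgeR). Cyp4b1 at CT20 held 28.3, 24.7 and 27.5 CPM in ADX and 17.0, 14.0 and 21.3 CPM in sham cochleae. Fmo2 held 24.195, 18.244 and 26.851 CPM in ADX and 18.173, 11.364 and 16.344 CPM in sham cochleae. Cyp2e1, the ethanol-oxidising P450, held 3.25, 1.99 and 1.52 CPM in ADX and 1.11, 0.814 and 0.854 CPM in sham cochleae. Cyp2e1 rests on 13 to 86 counts per library. At the other times its log2 fold change ran from -0.75 at CT24 to 0.09 at CT04, and over the 6 times it was -0.05. In these 3 genes the ADX and sham libraries did not overlap, narrowly so in Fmo2. They are among members picked by p-value with these same libraries, so the lack of overlap is no separate support. The share of all genes without overlap at CT20 was not counted. Sham CT20 replicate 2 had the lowest summed level of the airway epithelium markers of the 36 libraries, 1350 CPM. Sham CT20 also had the lowest group mean of that sum, 2062 CPM. Without sham CT20 replicate 2, the number at an unadjusted p under 0.05 was 7, against 6.51% of all genes. Cyp2f2, Por and Cyp26a1 dropped out, and the smallest adjusted p of the 10 was 0.633, for Cyp4b1 (edgeR). All 10 stayed positive, but they had been picked as higher in ADX with these same libraries. Their sign is thus no separate support. The number at that limit was 12 without the 3 muscle-high libraries, against 7.54% of all genes. It was 10 without the 5 libraries high in Gh, against 7.21%.

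Some members moved from library to library with the sum of the airway epithelium markers. That sum was mostly Bpifa1, at a mean of 2442 CPM, against 24.6 CPM for the next marker, Foxj1. The markers were not examined separately. Within the 12 groups, their summed level was related to the level of 28 of all genes tested past the threshold (0.124%). Of the 28, 4 were members. Of the 9 markers, 8 were themselves among the genes tested, so the 28 can hold markers that are related to the sum by construction. Slopes, in log2 CPM per log2 unit of the marker sum, were 0.63 for Cyp2f2 (adjusted p = 3.9e-07, edgeR), 0.75 for Cyp4a12b (1.4e-06) and 0.63 for Cyp4a12a (0.0043). Cyp4b1 had a slope of 0.35 (adjusted p = 0.0763, edgeR), Cyp2a5 0.67 (0.298), Fmo1 0.11 (0.751) and Por 0.05 (0.798). Cyp2e1 had the largest slope of the members, 0.79 (adjusted p = 0.281, edgeR), with Cyp2b10 at 0.44 (0.355) and Fmo2 at 0.33 (0.277). Of the 46 members 30 had a positive slope, and the median was 0.06. These tests were added after the data had been seen.

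**Figure D5:**
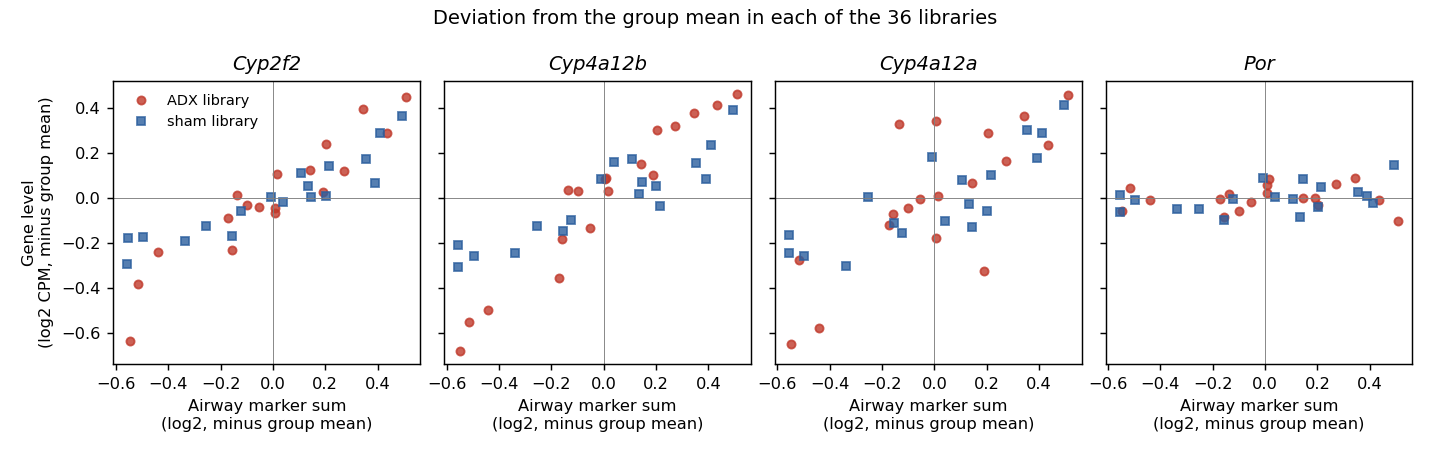
Deviation of each library from its group mean (log2) for Cyp2f2, Cyp4a12b, Cyp4a12a and Por against the deviation of the summed airway and middle ear epithelium markers (log2), with ADX and sham libraries in separate colours. The slopes are 0.63 for Cyp2f2, 0.75 for Cyp4a12b, 0.63 for Cyp4a12a and 0.05 for Por.

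The plot of deviations shows libraries of both statuses spread along the slopes of Cyp2f2, Cyp4a12b and Cyp4a12a, and little slope for Por. With the marker sum as a covariate, 2 of 46 members passed between ADX and sham cochleae over the 6 times, against 1.27% of all genes. Cyp2b10, higher in ADX, was among them. With the covariate, 8 of 46 were rhythmic in ADX (against 8.74% of all genes) and 13 of 46 in sham cochleae (against 17.6%). A shared rhythm was called in 22 of 46 (against 33.2%), among them all 21 of the fit without the covariate. Of the 10 members at CT20, 9 stayed at an unadjusted p under 0.05. Whether the marked epithelium is the source of these transcripts was not tested.

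Genes that work with these enzymes were listed by function, and their counts past the threshold are to be read against the shares of all genes given above. Of DBP, TEF, HLF and NFIL3, the last a repressor at the same D-box sites, 4 of 4 were rhythmic in each status. Between ADX and sham over the 6 times, 0 of the 4 passed the threshold. At an unadjusted p under 0.05 (edgeR) there were 3 of the 4, against 15.6% of all genes. Of these, 2 were higher and 1 was lower in ADX. Dbp had a peak-to-trough difference of 2.54 ± 0.24 in ADX and 3.59 ± 0.24 in sham cochleae, with peaks at 9.94 h in ADX and 9.96 h in sham cochleae. Tef had 0.99 ± 0.11 in ADX and 1.496 ± 0.11 in sham cochleae, peaking at 11.9 h in ADX and 11.6 h in sham cochleae. Hlf had 0.45 ± 0.10 in ADX and 0.63 ± 0.10 in sham cochleae, and Nfil3 0.85 ± 0.11 in ADX and 1.11 ± 0.11 in sham cochleae with peaks at 20.7 h in ADX and 20.6 h in sham cochleae. The unadjusted p of the difference in rhythm was 0.0150 for Dbp and 0.00726 for Tef, and neither passed after adjustment.

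Of 13 electron transfer partners tested, Por included, 2 were rhythmic in ADX and 4 in sham cochleae, and 3 had a shared rhythm: Por, Cyb5r3 with a peak-to-trough difference of 0.21 in ADX and 0.36 in sham cochleae, and Nenf with 0.16 in ADX and 0.18 in sham cochleae. Cyb5r4, the other call in sham cochleae, had 0.03 in ADX and 0.23 in sham cochleae. Of 15 genes of heme synthesis and turnover, Alas1 included, 1 was rhythmic in ADX and 3 in sham cochleae. Hmox1, which breaks down heme, had 0.66 in ADX and 0.85 in sham cochleae, Uros, a heme synthesis enzyme, 0.11 in ADX and 0.28 in sham cochleae, and Hmox2 0.04 in ADX and 0.14 in sham cochleae. None of these genes passed between ADX and sham cochleae over the 6 times.

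Of 41 conjugation enzymes tested, 8 were rhythmic in ADX and 13 in sham cochleae, 15 had a shared rhythm, and 0 passed between ADX and sham cochleae. The smallest p-values belonged to glutathione transferases, with peak-to-trough differences of 0.63 in ADX and 0.81 in sham cochleae for Gstt2, 0.29 in ADX and 0.37 in sham cochleae for Gstt1, and 0.88 in ADX and 0.68 in sham cochleae for Gsta3. Gstm5 had 0.22 in ADX and 0.29 in sham cochleae, Gstt3 0.35 in ADX and 0.32 in sham cochleae, and Gstz1 0.18 in ADX and 0.31 in sham cochleae. Of 34 other oxidising and hydrolysing enzymes tested, 7 were rhythmic in ADX and 11 in sham cochleae, 19 had a shared rhythm, and 0 passed between ADX and sham cochleae. They included Cbr2, a carbonyl reductase of lung, with 0.90 in ADX and 0.95 in sham cochleae, Ces1f, a carboxylesterase, with 0.90 in ADX and 1.41 in sham cochleae, and Akr1b8, an aldo-keto reductase, with 0.58 in ADX and 0.57 in sham cochleae. The quinone reductases Nqo1, with 0.28 in ADX and 0.35 in sham cochleae, and Nqo2, with 0.11 in ADX and 0.28 in sham cochleae, were also among them.

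Of 16 retinoid pathway genes tested, 3 were rhythmic in ADX and 1 in sham cochleae, 6 had a shared rhythm, and 0 passed between ADX and sham cochleae. Aldh1a1, which makes retinoic acid and is also on the list of oxidising enzymes, had a peak-to-trough difference of 0.41 in ADX and 0.20 in sham cochleae, and Dhrs9, a retinol dehydrogenase, 0.81 in ADX and 0.67 in sham cochleae. Crabp1, which binds retinoic acid, had 0.82 in ADX and 0.62 in sham cochleae. The retinoic acid receptor Rarg had 0.21 in ADX and 0.18 in sham cochleae, Dhrs3 0.23 in ADX and 0.23 in sham cochleae, and Aldh1a3 0.26 in ADX and 0.35 in sham cochleae.

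Of 21 regulators of P450 genes tested, 4 were rhythmic in ADX and 6 in sham cochleae, and 9 had a shared rhythm. The vitamin D receptor Vdr had a peak-to-trough difference of 0.40 in ADX and 0.68 in sham cochleae, Nr2f1 0.40 in ADX and 0.40 in sham cochleae, and the liver X receptors Nr1h3 0.24 in ADX and 0.23 in sham cochleae and Nr1h2 0.07 in ADX and 0.16 in sham cochleae. Ppargc1a, a coactivator, had 0.21 in ADX and 0.29 in sham cochleae. Nfe2l2, which encodes NRF2, was the 1 listed regulator past the threshold between ADX and sham cochleae over the 6 times, lower in ADX with a log2 fold change of -0.08 (adjusted p = 0.0492, edgeR), close to the limit. Alternatives were run for the 46 members and not for Nfe2l2.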

How the data were processed

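Per the file headers, the deposited values are raw counts for each Ensembl gene, beside a gene length. The submitters' processing notes name STAR 2.4.0i and mm10. The sources used here do not name the counting program, its annotation or its strand setting. Column times differed by 1 h from the labels in 30 of 36 columns, and the labelled times were used. Symbols and coordinates came from GENCODE M21 on GRCm38, which matched 37607 IDs (96.4%).

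The tests were run in edgeR 4.0.16 under R 4.3.3 (TMM, filterByExpr, glmQLFit, glmQLFTest). The filter kept 22556 genes, all 46 members among them. ADX was compared with sham in a model of 12 group means (24 residual degrees of freedom) and rhythm in a model with a 24 h cosine per status (30). CPM are scaled by TMM library sizes, and fold changes and peak-to-trough values are log2. The scripts were tested on simulated data. DESeq2 1.42.0, other scalings and filters, a replicate block, tissue covariates and each library left out were the alternatives, of which the tissue covariate and the removal of muscle-high and Gh-high libraries were added after seeing the data.

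Named with values are Cyp2a5, Fmo2, Por, Alas1, every member past a threshold, the 2 most abundant members of each role, the 10 largest fold changes and the members nearest the count limit, and up to 6 called genes of each partner list. A few members beyond this rule are named after their values were seen. Members, lists and tests were chosen with earlier results of these data known. Replicates of a group differed by more than counting noise (chi-square per degree of freedom 5.03 to 20.4). The results of 1 gene are not reported or drawn here. Figures were drawn with matplotlib 3.10.9.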

Additional observations from a re-analysis of the deposited data

How the results depend on the processing

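The comparison of ADX with sham cochleae over the 6 times called 0 members, against 0.718% of all genes. DESeq2 called 2 (Cyp2b10 and Cyp4f14), against 2.19%. The airway covariate gave 2 (among them Cyp2b10), against 1.27%, and leaving out 1 library gave 0 to 1. At CT20 DESeq2 called 1 member (Cyp4b1), against 0.74%. Leaving out 1 library gave 0 to 1 at CT20, the 1 without ADX CT08 replicate 1. The 7 members rhythmic in ADX (9.4% of all genes) became 11 with DESeq2 (11.6%) and 5 to 9 with 1 library left out. The 10 in sham (16.08%) became 6 without the filter on low counts (6.82%). With 1 library left out they numbered 6 to 11, the 6 without sham CT12 replicate 3. The shared rhythm called 19 to 23 members in such fits. In every one of the 36, 5 members stayed rhythmic in ADX, 6 in sham and 19 shared. Shares of all genes are not given here for the fits with 1 library left out. Whether those member counts moved apart from all genes thus cannot be told. Without the muscle-high libraries 6 members were rhythmic in ADX (8.15% of all genes) and 9 in sham (15.5%), and without those high in Gh 9 in ADX (8.06%) and 9 in sham (10.3%). No result changed direction in a called value.

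Deviations of same-numbered libraries correlated at a mean of -0.01 (lowest -0.762, 77 of 198 pairs over 0.1), so no common pairing by replicate number was seen. A mean over all pairs cannot exclude a pairing among some of the groups. With the replicate number as a block, 0 of 46 members were called between ADX and sham (against 0.674% of all genes). In that fit 6 were rhythmic in ADX (against 8.85%) and 8 in sham (against 15.14%). A shared rhythm was called in 21 (against 31.5%) and a difference in rhythm in 0 (against 0%).

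The least abundant members, 13 of 46, averaged under 50 counts per library, which limits the precision of their values.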
